A study of Mus musculus with 16 samples.

Results

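Matricellular proteins are secreted into the extracellular matrix, where they modulate cell adhesion, growth factor access and matrix assembly rather than serve as its main load-bearing fibres. Many are low in the healthy adult heart and are made again during injury or pressure overload, largely by fibroblasts, with contributions from endothelial cells, macrophages and cardiomyocytes. A set of 9 genes were taken by symbol: periostin (Postn), the thrombospondins Thbs1, Thbs2 and Thbs4, osteonectin (Sparc), tenascin C (Tnc), osteopontin (Spp1), and the CCN proteins Ccn1 (older name Cyr61) and Ccn2 (older name Ctgf). Each gene was represented by its probe set of highest mean over all arrays. Of the 9 genes, 8 had a probe set of 1 symbol in the annotation, 1 each, among 19938 genes with such a probe set and 35556 probe sets in all. No probe set with the single symbol Spp1 is listed. Probe sets of several symbols were not searched for it. Spp1, a secreted integrin ligand made by macrophages and other cells, was thus not analysed here.

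The study measured RNA from hearts of male C57BL/6 mice on Affymetrix Mouse Gene 1.0 ST arrays, 1 array a mouse and 16 arrays in all. There were 4 groups of 4 mice: Zbtb17 cKO mice after transverse aortic constriction (TAC), Zbtb17 cKO mice after a sham operation, control mice after TAC and control mice after sham. The mice were 8 to 10 weeks old at surgery and the hearts were taken 4 weeks later. TAC narrows the aortic arch and makes the left ventricle pump against raised pressure. Zbtb17 encodes the zinc finger transcription factor Miz-1, and a cKO is a conditional knockout. The Cre line, the part of the gene deleted, the alleles of the control mice and the chamber sampled are all not given in the sources used here.

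The comparison of TAC with sham asks how each gene differed 4 weeks into pressure overload, and that of cKO with control how it differed by genotype. The interaction, the TAC difference in cKO minus that in control hearts, asks whether the TAC difference depended on genotype. Values are the deposited log2 levels, so a difference of 1 is a 2-fold ratio on the linear scale. Levels of different genes on this array are not compared, because each probe set has its own response. Differences were tested with limma over the 21333 probe sets whose mean was above the 40th percentile, with Benjamini-Hochberg adjustment and a threshold of 0.05. All 8 measured genes passed this filter, Tnc barely, with a mean of 4.373 against a limit of 4.369. The arrays are of similar scale (medians 4.85 to 4.975), and 12 cardiomyocyte markers all had means above the 90.7th percentile of all probe sets. The Zbtb17 probe set averaged 6.50 ± 0.02 in cKO TAC, 6.52 ± 0.07 in cKO sham, 6.45 ± 0.11 in control TAC and 6.36 ± 0.13 in control sham (SD, n = 4 each). It was not lower in the cKO hearts (log2 difference averaged over surgery 0.11 ± 0.06 (SE), limma adjusted p = 0.361). Nothing in the sources used here says whether its probes lie in the deleted part, so the genotype labels stand unchecked.

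Arrays within a group stood apart in ways that touch these genes. Of the 16 arrays, 6 had the atrial myosin light chain Myl7 above 6, and the other 10 were at 5.20 or below: cKO TAC 1 and 2, cKO sham 2, control TAC 1 and 2, and control sham 3. Their Myl7 levels were 6.07 and 8.83 in cKO TAC, 8.46 in cKO sham, 6.07 and 7.26 in control TAC, and 8.62 in control sham. Atf3, a stress-induced transcription factor, was above 8 on 3 arrays, all sham: 9.58 on cKO sham 1, and 10.18 and 8.45 on control sham 3 and 4. On the other 13 arrays Atf3 was at most 7.26. Both sets were picked after the values were seen, and many results of the 8 genes that rest on them are given with and without them. Values without a set rest on few mice. Without the arrays of high Myl7, the TAC hearts left are cKO TAC 3 and 4 and control TAC 3 and 4. Without those of high Atf3, the control sham hearts left are control sham 1 and 2. The fitted differences of Tnc are given only with both sets, as this gene fell below the filter without the 6 arrays of high Myl7.

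The promoters of Ccn1 and Thbs4 are shown because their genes move with those array sets and because both hold a binding motif that a script searched for. TEAD factors, the DNA partners of the mechanically regulated coactivators YAP and TAZ, bind GGAATG, and Ccn1 and Ccn2 are classic targets of that pathway. The other motifs searched were the AP-1 site TGANTCA, the core site TGACG of CREB and ATF proteins, and the CArG box of serum response factor, each on both strands. Windows of 300 bases, from 250 before to 50 after the transcription start, were taken from RefSeq on GRCm38.p6. There were 10 such windows for 7 of the 9 genes, with none for Thbs1 or Ccn2. In the lines that follow, capitals mark the matches, which here read CATTCC for TEAD and CGTCA for CREB and ATF, as both motifs lie on the opposite strand.
Ccn1 promoter (chr3:145649936-145650235, minus strand): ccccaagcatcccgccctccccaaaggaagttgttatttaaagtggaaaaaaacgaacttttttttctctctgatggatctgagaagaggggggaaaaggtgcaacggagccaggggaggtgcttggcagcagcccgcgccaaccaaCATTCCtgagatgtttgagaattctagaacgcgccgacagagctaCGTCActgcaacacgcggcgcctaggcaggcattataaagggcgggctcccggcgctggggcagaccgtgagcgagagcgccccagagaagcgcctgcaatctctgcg
Thbs4 promoter (chr13:92794769-92795068, minus strand): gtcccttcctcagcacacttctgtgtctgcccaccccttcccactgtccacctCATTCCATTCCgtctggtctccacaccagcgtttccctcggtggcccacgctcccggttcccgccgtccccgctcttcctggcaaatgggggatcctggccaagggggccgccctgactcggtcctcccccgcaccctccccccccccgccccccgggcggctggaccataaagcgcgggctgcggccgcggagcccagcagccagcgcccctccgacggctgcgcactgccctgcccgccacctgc
The Ccn1 window held CATTCC starting 103 bases before the start and CGTCA starting 58 bases before it. The Thbs4 window held CATTCC at 197 and 192 bases before the start, so that the matches overlap by 1 base. The other 8 windows, of Postn, Thbs2, Sparc, Tnc and Spp1, held none of the 4 motifs. Of all 32851 windows, 14.7% held the TEAD motif, 7.81% the AP-1 motif, 20.8% the CREB and ATF core site and 1.63% the CArG box. A match describes letters in the sequence and does not show binding.

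Across the 8 measured genes, 5 had a higher mean after TAC than after sham (Postn, Thbs2, Thbs4, Sparc and Tnc) and 3 had a lower one (Thbs1, Ccn1 and Ccn2), averaged over genotype. None passed the adjusted threshold, and neither did any probe set on the array (0% called, 0 of 21333). At an unadjusted p under 0.05, 3 of the 8 genes passed (37.5%: Postn, Thbs2 and Sparc, all higher after TAC), against 2569 probe sets (12%). The genes' median log2 difference was 0.18, and that of all tested probe sets was 0.01. This count depended on single mice. It was 0 without cKO TAC 1, without cKO sham 1 or without control sham 1, and 1 without cKO TAC 2, cKO sham 3, cKO sham 4, control TAC 2, control TAC 4 or control sham 2. It was also 1 without the 6 arrays of high Myl7, and 1 without the 3 of high Atf3. In bulk tissue, more cells of a type and more RNA per cell cannot be told apart.

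**Figure D1:**
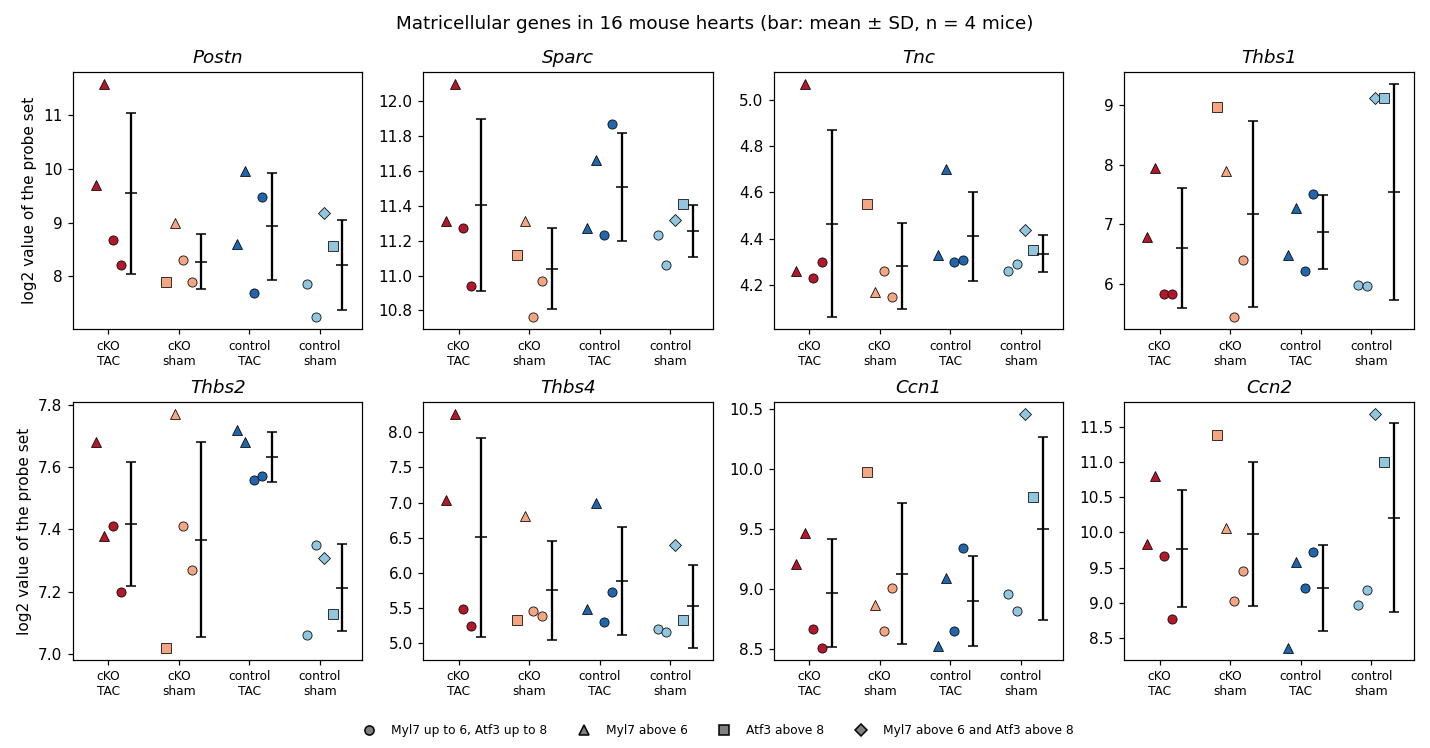
Log2 level of each measured matricellular gene on every array, in 1 panel a gene, with the 4 groups on the x axis, 1 symbol a mouse, and a bar for the mean ± SD of each group (n = 4 mice). The symbol's shape marks arrays with Myl7 above 6, Atf3 above 8, both or neither. Postn, Thbs4, Sparc and Tnc were highest on cKO TAC 2, and Thbs1, Ccn1 and Ccn2 were highest on 3 sham arrays, so the spread within groups is wide beside the differences between them.

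Postn (probe set 10492021, chr3:54359267-54391041) encodes a secreted protein that binds collagen and integrins and marks activated fibroblasts. Its log2 levels were 9.70, 11.58, 8.67 and 8.21 in cKO TAC hearts and 7.90, 9.0, 8.31 and 7.90 in cKO sham hearts. They were 8.60, 9.95, 7.70 and 9.48 in control TAC hearts and 7.86, 7.24, 9.18 and 8.57 in control sham hearts. The TAC hearts held the 4 highest values of all 16, and TAC and sham overlapped in both genotypes. Group means ran 9.54 ± 1.50 in cKO TAC, 8.28 ± 0.52 in cKO sham, 8.93 ± 0.99 in control TAC and 8.21 ± 0.84 in control sham (SD, n = 4 each). Averaged over genotype the TAC hearts were higher by 0.99 ± 0.45 (SE), with a 95% interval of 0.03 to 1.95, an unadjusted p of 0.0436 and a limma adjusted p of 0.397. In cKO hearts the difference was 1.26 ± 0.64 (limma adjusted p = 0.731), and in control hearts it was 0.72 ± 0.64 (limma adjusted p = 0.779).

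The mouse cKO TAC 2, with the highest Postn of all, set much of the size of that difference. Without it the TAC difference was 0.65 averaged over genotype and 0.58 in cKO hearts. In control hearts the difference was 0.38 without control TAC 2, 0.40 without control sham 2 and 1.13 without control TAC 3. Postn ranged from 8.60 to 11.58 (median 9.44) on the 6 arrays of high Myl7, against 7.24 to 9.48 (median 8.06) on the other 10. Without those 6 arrays the TAC difference was 0.55 averaged over genotype and 0.40 in cKO hearts, and without the 3 arrays of high Atf3 it was 1.38 in control hearts. The part of the atrial signal in the result was not tested. Fibroblast markers moved alongside: all 15 of 15 listed were positive for TAC (median 0.28, 0 called), and their mean level was 8.11 to 9.01 in cKO TAC, 7.98 to 8.40 in cKO sham, 8.14 to 8.59 in control TAC and 7.84 to 8.41 in control sham.

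Sparc (probe set 10386058, chr11:55394159-55420080) encodes a collagen-binding protein that takes part in the processing and deposition of fibrillar collagen. Its levels were 11.31, 12.10, 11.27 and 10.94 in cKO TAC hearts and 11.12, 11.31, 10.76 and 10.97 in cKO sham hearts. Control TAC hearts had 11.27, 11.66, 11.23 and 11.87 and control sham hearts had 11.23, 11.06, 11.32 and 11.41. The groups overlapped within each genotype, with the 3 highest values in TAC hearts. The TAC difference averaged over genotype was 0.31 ± 0.14 (SE; 95% interval 0.004 to 0.61), with an unadjusted p of 0.0477 and a limma adjusted p of 0.410. It was 0.37 ± 0.20 in cKO hearts (limma adjusted p = 0.757) and 0.25 ± 0.20 in control hearts (limma adjusted p = 0.751). Without cKO TAC 2 it was 0.19 averaged over genotype and 0.13 in cKO hearts, where it was 0.16 without the 6 arrays of high Myl7.

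Tnc (probe set 10513739, chr4:63959785-64047015) encodes a large adhesion-modulating glycoprotein that is sparse in the adult myocardium and appears at sites of injury. Its probe set lay at the 40.1st percentile of all probe-set means, near the bottom of the tested range. The levels were 4.26, 5.07, 4.23 and 4.30 in cKO TAC, 4.55, 4.17, 4.26 and 4.15 in cKO sham, 4.33, 4.70, 4.30 and 4.31 in control TAC, and 4.26, 4.29, 4.44 and 4.35 in control sham. One heart stood above its group in each TAC group, cKO TAC 2 and control TAC 2, and the rest lay close together. The TAC difference averaged over genotype was 0.13 ± 0.11 (SE; limma adjusted p = 0.681). Without cKO TAC 2, control TAC 2 or the 6 arrays of high Myl7, Tnc fell below the filter and was not tested. A fitted difference without those hearts is thus not given. Apart from cKO TAC 2, the cKO TAC hearts had 4.23 to 4.30, within the cKO sham range of 4.15 to 4.55. Apart from control TAC 2, the control TAC hearts had 4.30 to 4.33, within the control sham range of 4.26 to 4.44. Group medians were 4.28 in cKO TAC, 4.215 in cKO sham, 4.32 in control TAC and 4.32 in control sham.

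Thrombospondins are multimeric glycoproteins: Thbs1 and Thbs2 form trimers that inhibit blood vessel growth, and Thbs4 forms pentamers. Thbs1 also activates latent TGF-beta. By the SD pooled over the 4 groups, Thbs2 (probe set 10447951, chr17:14665500-14694262) had the smallest spread of the 8 genes (0.202), though Tnc had a smaller SD in both sham groups and Sparc in cKO sham. Its levels were 7.68, 7.38, 7.41 and 7.20 in cKO TAC hearts, 7.02, 7.77, 7.41 and 7.27 in cKO sham hearts, 7.72, 7.68, 7.56 and 7.57 in control TAC hearts, and 7.06, 7.35, 7.31 and 7.13 in control sham hearts. Every control TAC heart was above every control sham heart, while the cKO groups overlapped. Thbs2 was the 1 gene of the 8 without overlap between TAC and sham in control hearts, where 3.73% of tested probe sets had none. In cKO hearts 0 of 8 genes lacked overlap, against 4.36% of probe sets.

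In control hearts Thbs2 was higher after TAC by 0.42 ± 0.14 (SE; 95% interval 0.13 to 0.71), with an unadjusted p of 0.00706 and a limma adjusted p of 0.484. It was the 1 of 8 genes under an unadjusted p of 0.05 in that comparison (12.5%), where 1774 probe sets (8.32%) were under it and 0 (0%) passed the adjusted threshold. In cKO hearts its TAC difference was 0.05 ± 0.14 (95% interval -0.24 to 0.34, limma adjusted p = 0.967). The difference between the genotypes in their TAC response was -0.37 ± 0.19 (95% interval -0.78 to 0.04), with an unadjusted p of 0.0719 and a limma adjusted p of 1. A smaller TAC response of Thbs2 in cKO hearts was thus not shown. Averaged over genotype, Thbs2 was higher after TAC by 0.24 ± 0.10 (unadjusted p = 0.0264, limma adjusted p = 0.349).

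Thbs4 (probe set 10411082, chr13:92751586-92794818), which in mouse hearts has been linked to the endoplasmic reticulum stress response, split the arrays rather than the groups. Its levels were 7.03, 8.26, 5.48 and 5.24 in cKO TAC hearts and 5.33, 6.81, 5.46 and 5.39 in cKO sham hearts. Control TAC hearts had 5.49, 7.0, 5.30 and 5.73 and control sham hearts had 5.20, 5.15, 6.40 and 5.33. Each group thus had 1 or 2 hearts well above the rest, and these 5 hearts were all among the 6 of high Myl7. Thbs4 ran from 5.49 to 8.26 (median 6.90) on those 6 arrays, against 5.15 to 5.73 (median 5.33) on the other 10. Averaged over genotype its TAC difference was 0.56 ± 0.41 (SE; limma adjusted p = 0.607). It was 0.26 without cKO TAC 2 and 0.13 without the 6 arrays. In cKO hearts it was 0.76 ± 0.58 (limma adjusted p = 0.838), which was 0.17 without cKO TAC 2 and -0.03 without the 6 arrays.

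The atrial and the cartilage and valve lists were both highest on those 6 arrays. The atrial list holds Myl7, the gene that chose them. Without Myl7 its mean was 6.62 to 7.89 on those 6 arrays, against 6.27 to 6.58 on the other 10. All 8 genes of the atrial list were measured and 7 were tested. Its mean log2 level ran 6.04 to 8.01 in cKO TAC, 6.21 to 7.47 in cKO sham, 6.06 to 7.11 in control TAC and 6.05 to 7.44 in control sham. The cartilage and valve list, with all 7 genes measured and 4 tested, ran 4.82 to 5.67 in cKO TAC, 4.74 to 5.45 in cKO sham, 4.83 to 5.29 in control TAC and 4.79 to 5.52 in control sham. Array levels do not reach 0, the lowest value in the table being 2.34, so no marker can be called absent on that ground. The part of atrial or valve tissue in the Thbs4 and Postn levels was not tested.

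Thbs1 (probe set 10474700, chr2:118111876-118127133) had the widest spread within groups of the 8 genes, at the 99.99th percentile of all tested probe sets. Its levels were 6.79, 7.95, 5.84 and 5.83 in cKO TAC hearts and 8.96, 7.89, 5.44 and 6.40 in cKO sham hearts. Control TAC hearts had 6.48, 7.27, 6.22 and 7.51 and control sham hearts had 5.98, 5.97, 9.11 and 9.12. The 3 highest levels, 8.96 to 9.12, were those of the 3 sham arrays of high Atf3, and the other 13 arrays ran from 5.44 to 7.95. The TAC difference averaged over genotype was -0.62 ± 0.59 (SE; limma adjusted p = 0.704), and it was 0.46 without those 3 arrays.

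**Figure D2:**
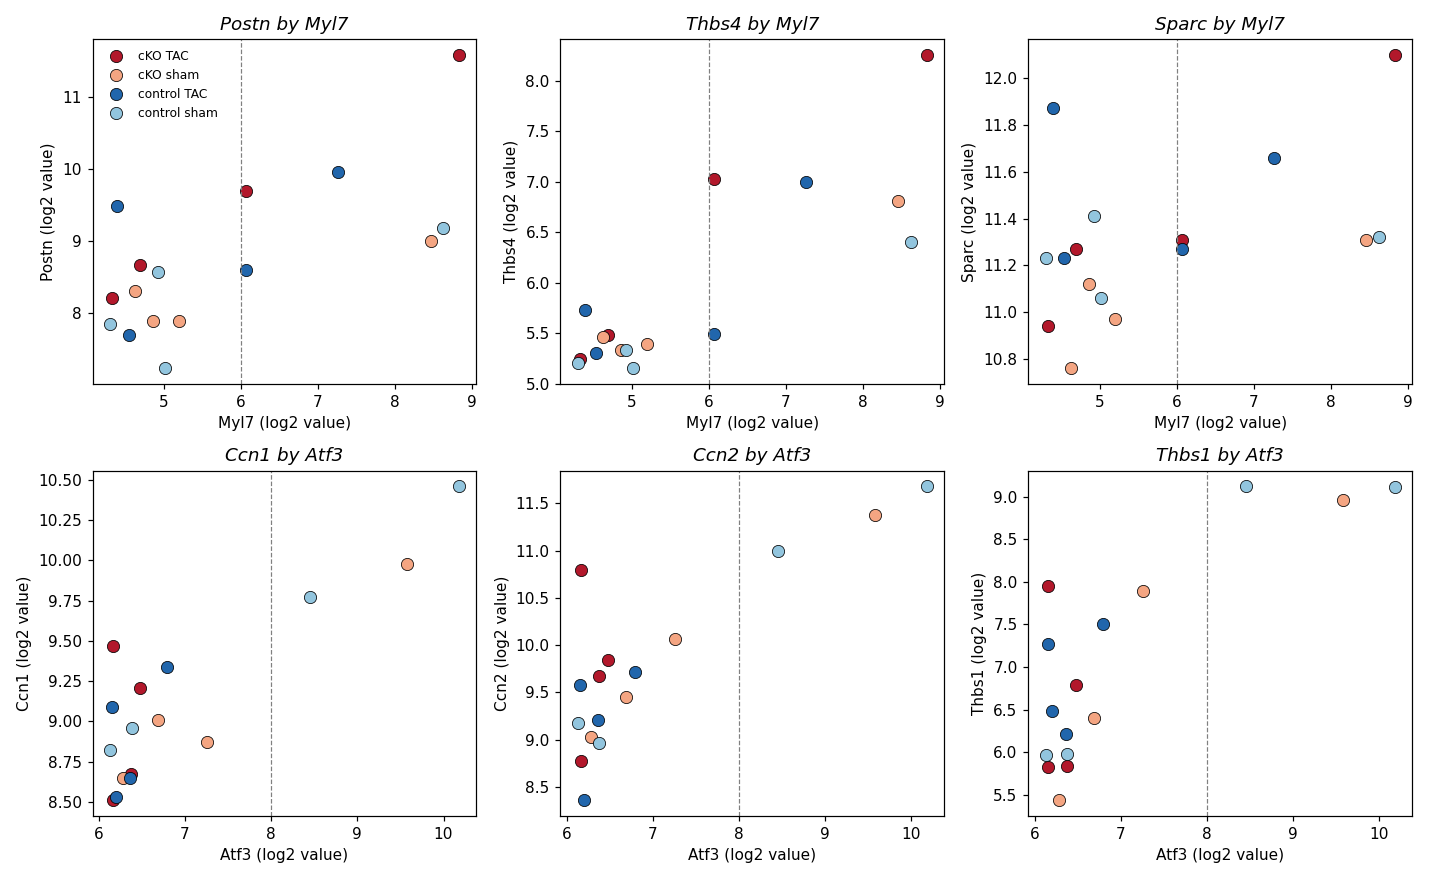
Log2 levels of Postn, Thbs4 and Sparc against Myl7 (top) and of Ccn1, Ccn2 and Thbs1 against Atf3 (bottom), with 1 point an array, the colour giving the group and a dashed line at 6 for Myl7 and 8 for Atf3. The 6 arrays with Myl7 above 6 held the 5 highest Thbs4 levels, 6.40 to 8.26, and the 3 sham arrays with Atf3 above 8 held the 3 highest levels of Ccn1, Ccn2 and Thbs1.

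CCN proteins are small cysteine-rich secreted proteins that bind integrins and heparan sulfate, and Ccn1 and Ccn2 are induced within minutes to hours by serum, stretch and TGF-beta. Ccn1 (probe set 10502655, chr3:145646971-145649985) had levels of 9.21, 9.47, 8.67 and 8.51 in cKO TAC, 9.98, 8.87, 8.65 and 9.01 in cKO sham, 8.53, 9.09, 8.65 and 9.34 in control TAC, and 8.96, 8.82, 10.46 and 9.77 in control sham. Ccn2 (probe set 10362201, chr10:24595442-24598683) had 9.84, 10.80, 9.67 and 8.77 in cKO TAC, 11.38, 10.06, 9.03 and 9.45 in cKO sham, 8.36, 9.58, 9.21 and 9.72 in control TAC, and 8.97, 9.18, 11.68 and 11.00 in control sham. Both were highest on the same 3 sham arrays, cKO sham 1, control sham 3 and control sham 4, and TAC and sham overlapped in both genotypes. On those arrays Ccn1 was 9.77 to 10.46, against 8.51 to 9.47 on the other 13, and Ccn2 was 11.00 to 11.68, against 8.36 to 10.80.

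Neither gene was higher on average after TAC. The TAC difference averaged over genotype was -0.38 ± 0.25 for Ccn1 (SE; limma adjusted p = 0.566) and -0.60 ± 0.43 for Ccn2 (limma adjusted p = 0.601). Without the 3 arrays of high Atf3 these became 0.07 and 0.20. In control hearts the differences were -0.60 ± 0.35 for Ccn1 (limma adjusted p = 0.671) and -0.99 ± 0.62 for Ccn2 (limma adjusted p = 0.684). They were -0.28 and -0.50 without control sham 3, 0.01 and 0.14 without the 3 arrays, and -0.19 and -0.25 without the 6 of high Myl7. In cKO hearts they were -0.16 ± 0.35 and -0.21 ± 0.62 (limma adjusted p = 0.957 and 0.969). These cKO differences were not followed with arrays left out, so their direction is not settled. The highest cKO sham levels, 9.98 for Ccn1 and 11.38 for Ccn2, were both on cKO sham 1, an array of high Atf3. The medians of cKO TAC and cKO sham were both 8.94 for Ccn1 and both 9.755 for Ccn2. Over the 8 genes the TAC differences in cKO hearts ran from -0.57 to 1.26. In that comparison 0 of 8 genes had an unadjusted p under 0.05, where 1447 probe sets (6.78%) did and 0 (0%) passed the adjusted threshold.

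The immediate early genes, which are switched on within minutes of stimulation or handling, were highest as a list on the same 3 sham arrays. Their mean log2 level over 23 genes, all measured, ran 6.33 to 6.48 in cKO TAC, 6.23 to 7.12 in cKO sham, 6.46 to 6.75 in control TAC and 6.42 to 7.17 in control sham. None of the 23 passed the adjusted threshold for TAC averaged over genotype. At an unadjusted p under 0.05, 5 of the 23 passed, all lower after TAC, where 12% of all probe sets did. The median difference of the 23 was -0.16, with 20 negative and 3 positive. It was 0.01 without the 3 arrays and -0.06 without the 6 of high Myl7. The list holds Atf3, the gene that chose those arrays. Without Atf3 its mean was 6.84 to 7.04 on the 3 arrays, against 6.23 to 6.803 on the other 13, and its median TAC difference was -0.15, or 0.02 without the 3 arrays. Jun and Fos, which form AP-1, had differences of -0.56 ± 0.18 and -0.29 ± 0.10 (SE; limma adjusted p = 0.272 for each), the phosphatase gene Dusp1 -0.38 ± 0.10 (limma adjusted p = 0.233) and the antiproliferative gene Btg2 -0.73 ± 0.30 (limma adjusted p = 0.349). The values of these named genes include the 3 arrays of high Atf3 and were not followed without them. Platelet markers, which bear on Thbs1 because platelets carry much of its protein, ran 5.73 to 6.00 in cKO TAC, 5.68 to 5.95 in cKO sham, 5.89 to 6.14 in control TAC and 5.83 to 6.15 in control sham (5 of 8 genes measured). The part of early stress genes or of platelets in the Thbs1, Ccn1 and Ccn2 levels was not tested.

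**Figure D3:**
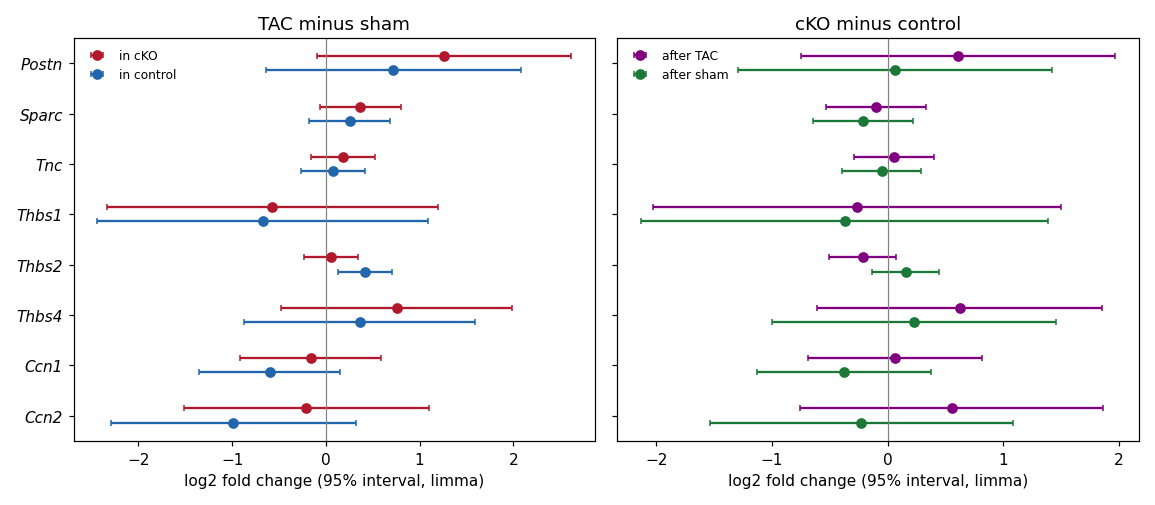
Log2 difference of each gene with its 95% interval, for TAC minus sham in cKO and in control hearts (left) and for cKO minus control after TAC and after sham (right; limma, 4 mice a group). The interval of Thbs2 in control hearts after TAC, 0.13 to 0.71, was the one of the 32 that did not reach 0.

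For cKO against control, no gene of the 8 passed in any of the tests. After TAC 1 probe set of 21333 (0.00469%) passed the adjusted threshold, and 0 of the 8 genes did. At an unadjusted p under 0.05, 1617 probe sets (7.58%) and 0 of 8 genes passed, and 0 of 8 lacked overlap, against 4.27% of probe sets. Thbs2 was lower in cKO TAC than in control TAC hearts by a log2 difference of -0.22 ± 0.14 (SE; 95% interval -0.50 to 0.07, limma adjusted p = 0.761). The differences of Thbs4 and Postn were 0.62 ± 0.58 and 0.61 ± 0.64 (limma adjusted p = 0.849 and 0.875). Both turned on the arrays of high Myl7, and without those 6 arrays they were -0.16 and -0.15. Without cKO TAC 2 the Thbs4 difference was 0.04 and the Postn difference -0.07.

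After sham, 5 probe sets (0.0234%) passed the adjusted threshold and 2278 (10.7%) had an unadjusted p under 0.05, with 0 of the 8 genes in either count. None of the 8 lacked overlap between cKO sham and control sham, against 5.27% of probe sets. Thbs2 differed by 0.16 ± 0.14, Ccn1 by -0.38 ± 0.35 and Sparc by -0.22 ± 0.20 (SE; limma adjusted p = 0.697, 0.719 and 0.720). Leaving out 1 array moved these to between 0.02 and 0.27 for Thbs2 (lowest without cKO sham 2, highest without cKO sham 1), between -0.66 and -0.06 for Ccn1 (without cKO sham 1 and without control sham 3) and between -0.31 and -0.12 for Sparc (highest without cKO sham 3). Without the 3 arrays of high Atf3 they were 0.28, -0.05 and -0.13, and without the 6 of high Myl7 0.05, 0.03 and -0.28. The Postn difference was 0.07 ± 0.64, and its 95% interval of -1.29 to 1.42 does not show that the genotypes were alike. It was 0.85 without the 3 arrays of high Atf3 and 0.15 without the 6 of high Myl7. Its sign was negative (lowest -0.26) without cKO sham 2, control sham 1 or control sham 2.

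Averaged over surgery, 4 probe sets (0.0188%) passed and 3182 (14.9%) had an unadjusted p under 0.05, again with 0 of the 8 genes in either count. Sparc differed by -0.16 ± 0.14, Thbs4 by 0.43 ± 0.41 and Postn by 0.34 ± 0.45 (SE; limma adjusted p = 0.629, 0.653 and 0.755). Without cKO TAC 2 these were -0.27, 0.13 and -0.004, and without cKO TAC 4 the Sparc difference was -0.08. Without the 6 arrays of high Myl7 they were -0.36, 0.006 and -0.002, and without the 3 of high Atf3 -0.12, 0.67 and 0.73. The test of whether the TAC response differed by genotype called 0 probe sets (0%) and had 790 (3.70%) under an unadjusted p of 0.05, with 0 of the 8 genes in either count. After Thbs2, the differences in response of smallest p were 0.78 ± 0.87 for Ccn2 and 0.44 ± 0.50 for Ccn1, and that of Postn was 0.54 ± 0.90 (SE; limma adjusted p = 1 for each). All 3 were negative without the 6 arrays of high Myl7, at -0.48, -0.44 and -0.30. Without the 3 arrays of high Atf3 they were 0.11, 0.11 and -0.25.

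Most of the variance of these genes lay between mice of the same group. With 16 arrays and 12 residual degrees of freedom, most would lie there for a gene without any group effect too. The shares over all probe sets were not computed. The within-group share was 73.0% for Postn, 91.5% for Thbs1, 57.5% for Thbs2, 83.0% for Thbs4, 71.5% for Sparc, 90.3% for Tnc, 81.4% for Ccn1 and 84.5% for Ccn2. Surgery held 26.0% for Thbs2 and 22.7% for Postn, and genotype held at most 5.80%, for Thbs4 and Sparc. The spread within groups put Postn, Thbs4 and Ccn2 at the 99.8th to 99.9th percentile of tested probe sets and Ccn1 at the 98.3rd. Sparc, Tnc and Thbs2 were at the 89.2nd, 81.2nd and 71.3rd.

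Levels of the genes were also correlated from mouse to mouse. Because the arrays that stand apart form clusters, correlations were taken within subsets without 1 or both kinds of them, with p-values adjusted over 44 pairs (each pair of the 8 genes, and each gene with Myl7 and Atf3). Over the 13 arrays with Atf3 up to 8, 22 of the 44 pairs passed by r and 16 by rho. There Ccn1 and Ccn2 had r = 0.78 and rho = 0.76 (permutation, two-sided, adjusted p = 0.00818 and 0.0255), and r was 0.58 without the 2 arrays farthest from the median of Ccn2. Thbs1 with Ccn2 had r = 0.73 and rho = 0.70 (permutation adjusted p = 0.0143 and 0.0341), and r was 0.79 without the 2 farthest arrays. Some pairs of these genes with other genes were as high, with Thbs4 and Ccn2 at r = 0.81 and rho = 0.73 (permutation adjusted p = 0.00607 and 0.0295) and r of 0.74 without the 2 farthest arrays. Thbs1 and Sparc had r = 0.82 and rho = 0.87 (permutation adjusted p = 0.00607 and 0.0044), with r of 0.69 without the 2 farthest arrays. With Atf3 itself the r on these 13 arrays was 0.46 for Thbs1, 0.21 for Ccn1 and 0.34 for Ccn2 (permutation adjusted p = 0.156, 0.581 and 0.321). These arrays were chosen by their Atf3 level, which narrows its range, so a low r here does not show a lack of relation. Over all 16 arrays, where the 3 of high Atf3 enter, r was 0.82 for Thbs1, 0.87 for Ccn1 and 0.83 for Ccn2. Over the 10 arrays with Myl7 up to 6, Postn and Thbs4 had r = 0.87 and rho = 0.83 (permutation adjusted p = 0.0101 and 0.0481), and r was 0.53 without the 2 arrays farthest from the median of Thbs4.

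The 13 arrays still held 5 of high Myl7, and the 10 still held 2 of high Atf3. Only 8 arrays had neither, 2 in each group. Over these 8, Postn and Thbs4 had r = 0.91 and rho = 0.88 (exact permutation p = 0.00246 and 0.00724, adjusted p = 0.108 and 0.319), and r was 0.64 without the 2 farthest arrays. Thbs1 and Ccn1 had r = 0.85 and rho = 0.78 (exact permutation p = 0.0118 and 0.0301, adjusted p = 0.13 and 0.386), but r was 0.26 without the 2 farthest arrays, so that relation rests on those mice. Ccn1 and Ccn2 had r = 0.59 and rho = 0.60 (exact permutation p = 0.122 and 0.124, adjusted p = 0.276 and 0.448). No pair of the 44 passed adjustment over these 8 arrays, for r or for rho.

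**Figure D4:**
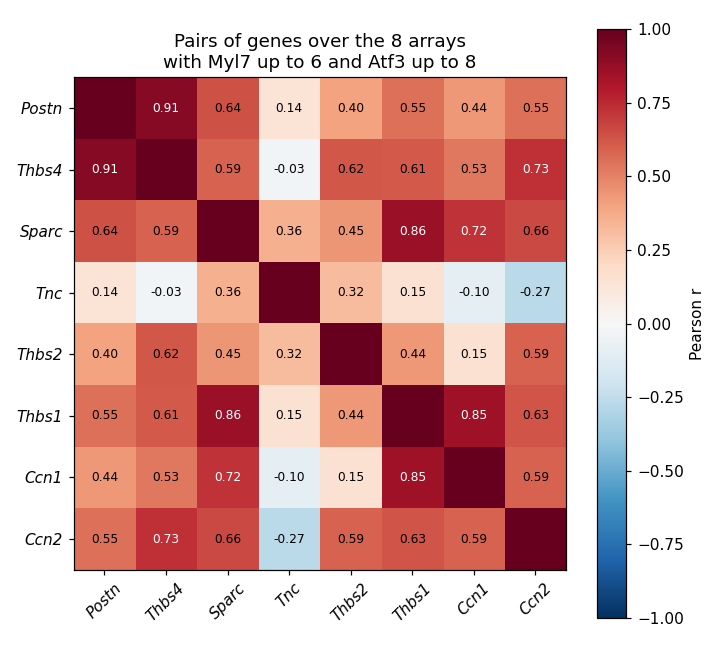
Pearson correlation between each pair of the 8 measured genes over the 8 arrays with Myl7 up to 6 and Atf3 up to 8, with the colour scale from -1 to 1. Postn with Thbs4 (0.91), Thbs1 with Sparc (0.86) and Thbs1 with Ccn1 (0.85) were the highest, and the r of Tnc with the other genes ran from -0.27 to 0.36.

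The genes whose levels followed each of these most closely over all 16 arrays are given as a description, since the same outlying arrays enter every such r. For Postn they were Serpinf1 (r = 0.97), Col8a1 (0.97), Mfap4 (0.97), Sfrp2 (0.96) and Timp2 (0.96), of which Col8a1 is a collagen, Mfap4 a microfibril protein and Timp2 a metalloproteinase inhibitor. For Thbs4 they were Prg4, the joint lubricant lubricin (r = 0.98), Serpinf1 (0.95), Angptl7 (0.95), the Wnt antagonist Frzb (0.95) and the cartilage matrix gene Cilp (0.95). For Ccn1 they were Rnd3 (r = 0.94), Ccn2 (0.93), Myc (0.90), Tlr4 (0.89) and Slc20a1 (0.89). For Ccn2 they were Ccn1 (r = 0.93), Tlr4 (0.92), Myc (0.91), Tent5a (0.91) and Calhm5 (0.91).

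Other genes of the same biology were taken as lists, and for TAC averaged over genotype no gene of any list passed the adjusted threshold. The lists share some genes and are not independent. Among the fibroblast markers, Col1a1, Col1a2, Lum and Dcn are also in the collagen list, and Fbln1 is among the other matricellular genes. Of 26 other matricellular genes, all measured, 22 were tested, and 20 were higher on average after TAC (median 0.22, where all tested probe sets had a median of 0.01 and 53.9% were positive). Of the 22, 8 had an unadjusted p under 0.05, where 12% of all probe sets did. All 8 were higher after TAC, including Ecm1 (0.59 ± 0.19, SE), the fibulin Fbln1 (0.51 ± 0.18), the tenascin Tnxb (0.22 ± 0.08) and Ccn5 (0.72 ± 0.26), whose protein lacks the C-terminal domain of other CCN proteins (limma adjusted p 0.265 to 0.302). Of 31 measured collagen and fibrillar matrix genes out of 34 listed, 29 were positive (median 0.29), with Timp2 at 0.36 ± 0.12, lumican (Lum) at 0.53 ± 0.19, Col6a2 at 0.29 ± 0.12 and decorin (Dcn) at 0.22 ± 0.09 (limma adjusted p 0.291 to 0.341).

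Of 20 receptors of matricellular proteins, all tested, 13 were positive and 7 negative (median 0.08). The calcium channel subunit Cacna2d1, a receptor for thrombospondins, had the smallest p, at -0.33 ± 0.08 (SE; unadjusted p = 0.000611, limma adjusted p = 0.229). Cd47, which binds Thbs1, was at 0.17 ± 0.04 (limma adjusted p = 0.233), the leukocyte integrin gene Itgb2 at 0.22 ± 0.10 (limma adjusted p = 0.374) and Itga8 at 0.40 ± 0.19 (limma adjusted p = 0.418). In TGF-beta signalling, 16 of 22 measured genes were positive (median 0.10, or 0.06 without the 6 arrays of high Myl7 and 0.16 without the 3 of high Atf3), with the inhibitory Smad6 at 0.23 ± 0.06 and the receptor Tgfbr2 at 0.30 ± 0.10 (SE; limma adjusted p = 0.233 and 0.273). Of 23 measured YAP, TEAD and SRF genes, 14 were positive (median 0.04, or 0.01 without the 6 arrays of high Myl7), with the SRF coactivator Mrtfb at 0.20 ± 0.07 and Tead1 at -0.24 ± 0.11 (SE; limma adjusted p = 0.321 and 0.392).

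Among markers of other cells that could carry these genes, the macrophage, endothelial, and smooth muscle and pericyte lists had positive medians for TAC as well. The ventricular and general cardiomyocyte list had a negative median, and 0 genes were called in each list. All 14 tested macrophage markers of 15 (median 0.31) and all 12 endothelial markers (median 0.15) were positive. Without the 6 arrays of high Myl7 these medians were 0.20 and 0.07. Among smooth muscle and pericyte markers 8 of 11 were positive (median 0.12, or 0.19 without the 3 arrays of high Atf3), and among ventricular and general cardiomyocyte markers 8 of 12 were negative (median -0.06, or -0.025 without the 6 arrays of high Myl7). The macrophage list averaged 6.44 to 7.18 in cKO TAC, 6.26 to 6.52 in cKO sham, 6.52 to 7.14 in control TAC and 6.20 to 6.75 in control sham. The part of cell makeup in the differences of the 8 genes was not tested.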

How the data were processed

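Total RNA of 16 mouse hearts was labelled with biotin and hybridised to Affymetrix Mouse Gene 1.0 ST arrays, per the labels. The authors deposited 1 table of log2 values for 35556 probe sets, and the log base was read from the values (2.34 to 14.35). MAS5 is named, without a version, per the submitters' processing notes, and the sources used here do not say how arrays were scaled. The table held 0 other columns. Gene names came from the platform annotation, updated by Entrez ID: 21789 probe sets have 1 symbol, 1621 several and 12146 are unlisted. Every pair of arrays differed in at least 97.4% of probe sets.

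Groups came from the titles. Levels were fitted with limma 3.58.1 (R 4.3.3) as 4 group means over 16 arrays, with a trended prior, over 21333 probe sets above the 40th percentile, and 7 comparisons were drawn. The fit was tested on simulated data. The labels number mice but give no batch, and the number of arrays limits precision. Correlations used 100000 permutations, or all permutations for fewer than 10 arrays. The set of 44 pairs replaced 54 foreseen with Spp1. Full statistics were to be given for Postn and the 3 genes of smallest p in each comparison; those for the other genes in TAC minus sham were added after their values were seen. The genes and lists were chosen with earlier results of these data known. Alternatives to the fit were median centring or quantile normalization of the arrays, a filter at the 60th percentile or none, a prior without trend, weights per array, a block for the replicate number, averaging the probe sets of each gene, fitting only the groups compared, and leaving out each array. Leaving out the arrays of high Myl7 or Atf3, the array subsets for correlations, and lists without Myl7 or Atf3, were added after seeing the data.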

Additional observations from a re-analysis of the deposited data

Results flagged for a closer look

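Within the 4 groups, 32 sets of 4 values (8 genes in 4 groups) were examined for a single array far from the other 3, and 4 were found. Chance alone gives about 1 in 20 such sets. Thbs4 on cKO sham 2 was 6.81, where the other 3 cKO sham hearts had 5.33 to 5.46, and on control sham 3 it was 6.40, where the other 3 had 5.15 to 5.33. Tnc on cKO TAC 2 was 5.07, where the other 3 had 4.23 to 4.30, and on control TAC 2 it was 4.70, where the other 3 had 4.30 to 4.33. All 4 arrays had high Myl7, at 8.46 on cKO sham 2, 8.62 on control sham 3, 8.83 on cKO TAC 2 and 7.26 on control TAC 2. The part of that signal in the high Thbs4 and Tnc levels was not tested.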

How the results depend on the processing

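No gene of the 8 passed the adjusted limma threshold under any alternative run. Direction was followed for all 8 genes in TAC minus sham averaged over genotype. In each other comparison it was followed only for Postn and the 3 genes of smallest p. List medians were followed only without the arrays of high Myl7 or Atf3. The values followed kept their direction except as listed here. Without the 3 arrays of high Atf3, TAC minus sham averaged over genotype was 0.46 for Thbs1, 0.067 for Ccn1 and 0.20 for Ccn2, and in control hearts 0.013 for Ccn1 and 0.14 for Ccn2; the list medians averaged over genotype were 0.010 for immediate early genes and -0.0175 for platelet markers, and the interaction of Postn was -0.25. Without the 6 arrays of high Myl7, TAC minus sham in cKO was -0.033 for Thbs4, the atrial list median -0.0679, cKO minus control after TAC -0.16 for Thbs4 and -0.15 for Postn, after sham 0.03 for Ccn1, averaged over surgery -0.00167 for Postn, and the interaction -0.48 for Ccn2, -0.44 for Ccn1 and -0.30 for Postn. With array weights, Postn in cKO minus control after sham was -0.22. Leaving out 1 array, Postn ranged from -0.073 to 1.05 for cKO minus control after TAC, -0.26 to 0.39 after sham, -0.0037 to 0.56 averaged over surgery and -0.14 to 0.99 in the interaction. The count of the 8 genes with an unadjusted p under 0.05 for TAC averaged over genotype was 1 without either set of arrays and 0 to 3 when 1 array was left out. Counts of all probe sets called were small and moved. For TAC minus sham, without a filter they were 1 averaged over genotype and 5 in control hearts, with only the groups compared 1 in each genotype, and leaving out 1 array 0 to 1 averaged over genotype, 0 to 1 in cKO and 0 to 2 in control. For cKO minus control after TAC the count was 2 with quantile normalization, array weights or the mean of probe sets, 0 with no trend, only the groups compared or without either set of arrays, and 1 to 2 leaving out 1 array. After sham it was 0 with median centring, the 60th percentile filter, the mean of probe sets or without either set of arrays, 1 with array weights, 3 with no trend or only the groups compared, and 0 to 27 leaving out 1 array. Averaged over surgery it was 8 with quantile normalization or the mean of probe sets, 9 with the 60th percentile filter, 2 with median centring or no trend, 1 without a filter or without the arrays of high Myl7, and 1 to 81 leaving out 1 array. With the replicate number as a block the counts were 0 after sham and 2 averaged over surgery. No pairing of mice by number was seen, though this check cannot exclude it. Deviations of same-numbered arrays had r from -0.20 to 0.19 over 24 pairs, 6 of them above 0.1. Of 16 arrays, 3 were most like their own number. Of 44 gene pairs, 14 passed by Pearson r over all 16 arrays, 22 over the 13 of low Atf3, 10 arrays of low Myl7 gave 7, the 8 arrays with neither gave 0, residuals from group means 28, and leaving out the 2 farthest arrays 7. The causes were not tested. Tnc, near the filter, was not tested under some settings. These included the 60th percentile filter and the runs without cKO TAC 2, control TAC 2 or the 6 arrays of high Myl7. No depth or detection call is given in the sources used here.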
